A study of Mus musculus with 24 samples.

Results

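Untreated macrophages of TBK1-cKD genotype were compared here by their label, IKKe knockout or control. The comparison rests on 6 of the 24 libraries of the series. They are the 3 untreated libraries labelled TBK1-cKD IKKe knockout (the labels write ∆IKKe) and the 3 untreated libraries labelled TBK1-cKD control (∆control), chosen by their titles alone. The cells were bone marrow-derived macrophages, grown out of mouse bone marrow with the growth factor M-CSF. All 6 libraries are TBK1-cKD, so that genotype is shared by both groups and only the IKKe label differs. The series record describes cKD as a conditional knockout of TBK1. Neither the allele, nor the Cre line, nor the way IKKe was removed is stated. The protocol text on every record speaks of wild-type C57BL/6N mice, although the labels give 4 genotypes, and it says that 3 individual mice gave the 3 independent replicates. Age and sex are not given. The 6 untreated TBK1-WT libraries, 3 labelled control and 3 labelled IKKe knockout, served as a second pair in which the same label was compared. The remaining 12 libraries had 8 h of R837, a Toll-like receptor 7 ligand, and are used for levels set beside the untreated ones and in an alternative fit of all 24 libraries.

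TBK1 and IKKe are related serine/threonine kinases that act downstream of nucleic acid sensors and of Toll-like receptors. Both phosphorylate the transcription factors IRF3 and IRF7 and so drive type I interferon genes, whose product in turn induces the interferon-stimulated genes through the JAK and STAT proteins. TBK1 and IKKe also phosphorylate RIPK1, and they are known to restrain TNF-driven cell death and signalling by the canonical IKK complex, which activates NF-kB. N4BP1 is an inhibitor of NF-kB signalling that caspase-8 cleaves.

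Both interferon-stimulated genes and NF-kB-associated inflammatory genes were higher in the IKKe-labelled TBK1-cKD libraries without any ligand. Of the interferon-stimulated genes tested, 85 of 86 rose, with a median log2 change of 1.32, and of NF-kB subunits, inhibitors and feedback genes 21 of 27 rose. Among all genes tested 15.9% rose and 13.1% fell. The acute phase gene Saa3 went from a mean of 1.43 ± 1.09 CPM to 474 ± 39.1 CPM, and Acod1, which makes itaconate, from 1.24 ± 0.208 to 188 ± 10.5 CPM. MHC class II and costimulation genes (15 of 16), complement C3 and the gelatinase gene Mmp9 rose as well. Lower were 29 of 45 cell cycle genes and 17 of 30 genes of the ATF4 and unfolded protein responses. With all 24 libraries fitted these counts were 5 and 9, and in a test against a minimum change of 1.2-fold 2 and 4. Single genes such as Hbegf, Egr3 and Plau were lower too. In TBK1-WT cells the same label gave 11 calls.

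CPM are read counts per M of the library size, which edgeR's TMM factors adjust, and levels are given as mean ± SD over 3 libraries. A log2 change is given with the standard error of the fit. A gene is called where the adjusted p of edgeR's quasi-likelihood test, with Benjamini-Hochberg adjustment over all genes tested, is under 0.05, and "rose" and "fell" are kept for called genes. The 6 libraries held 24.6 to 40.3 M counts in genes and 18468 to 19514 genes with a count. Of 52636 genes in the files, 14256 passed the filter on low counts. On the first principal component, with 52.4% of the variance, the 3 IKKe-labelled TBK1-cKD libraries lay at 30.96 to 33.61 and the other 9 untreated libraries at -13.54 to -7.71. Control replicate 1 stood apart from control replicates 2 and 3: the chi-square of their counts per degree of freedom was 10.4 and 10.0, against 3.23 between replicates 2 and 3. Among TBK1-WT IKKe-labelled libraries replicate 1 stood apart likewise (8.97 and 13.1, against 3.19). Pairs with replicate 1 were also higher, by less, in TBK1-WT controls (5.9 and 5.8, against 3.4). The same held among IKKe-labelled TBK1-cKD libraries (3.1 and 4.3, against 2.0). Replicate 1 was the deepest library of each untreated group, at 34.4 to 40.9 M counts, and this measure grows with depth. No 2 libraries were alike within sampling noise. Macrophage markers were abundant, while those of other lineages ranged from 0 counts to clearly detected, as with Ighm, Ccr2, Col1a1 and Mmp9, whose values are given with their lists. Csf1r, the M-CSF receptor, stood at 1952 ± 82.3 CPM in the controls, while Ly6g of neutrophils, Cd3e of T cells and the globin genes Hba-a1 and Hbb-bs had 0 counts in all 6 libraries.

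In untreated TBK1-cKD cells the RNA of the targeted gene did not follow the label. Ikbke (chr1:131254343-131279606), which encodes IKKe, was at 79.5, 82.6 and 84.8 CPM in the 3 TBK1-cKD controls and at 89.9, 85.9 and 90.9 CPM in the 3 libraries labelled knockout. The knockout-labelled values all lie above the control values, so no loss of the transcript is seen without ligand. The log2 change was 0.11 ± 0.04 (adjusted p = 0.0249, edgeR quasi-likelihood), a call lost in 9 of 15 alternative settings (adjusted p from 0.0175 to 1 over them). In TBK1-WT cells Ikbke was at 65.8, 66.6 and 66.5 CPM in controls and 39.9, 38.4 and 39.1 CPM under the same label. There it fell by 0.76 on the log2 scale (adjusted p = 1.01e-08), and the changes under the 2 TBK1 genotypes differed by 0.87 (adjusted p = 4.35e-09). After R837, on the scale of all 24 libraries, the TBK1-cKD means were 139.9 CPM under the label and 242 CPM in control. The labelled libraries ranged there from 77.7 to 259 CPM and the controls from 238.8 to 247.7 CPM. In TBK1-WT after R837 the means were 75.6 CPM under the label and 286 CPM in control, against 59.5 CPM in untreated control. These levels were not tested. A knockout can leave RNA of a non-functional transcript, and the position of the change in the gene is not given, so the RNA does not check the label. The 3 libraries are called IKKe-labelled for this reason, and every direction given is between labels.

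Tbk1 (chr10:121546455-121586787) was at 84.8, 82.9 and 81.7 CPM in the controls and at 97.9, 101 and 99.0 CPM in the IKKe-labelled libraries. Both sets are below the 113, 116 and 112 CPM of TBK1-WT controls, and Tbk1 RNA was present in all 6. The log2 change between the TBK1-cKD groups was 0.26 ± 0.03 (adjusted p = 9.31e-06, edgeR quasi-likelihood). Its call was lost in 1 alternative, a test against a minimum change of 1.2-fold. N4bp1 (chr8:86808160-86885258) was at 58.8, 56.9 and 58.8 CPM in the controls and at 106, 100.5 and 101 CPM in the IKKe-labelled libraries. The groups are far apart, with a log2 change of 0.82 ± 0.04 (adjusted p = 1.1e-10), while TBK1-WT controls had 60.4, 57.4 and 59.8 CPM. Casp8 (chr1:58795374-58847503), which encodes caspase-8, was at 84.1, 83.2 and 82.9 CPM against 88.3, 85.5 and 85.7 CPM. Its log2 change of 0.05 ± 0.03 was not called (adjusted p = 0.275).

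**Figure D1:**
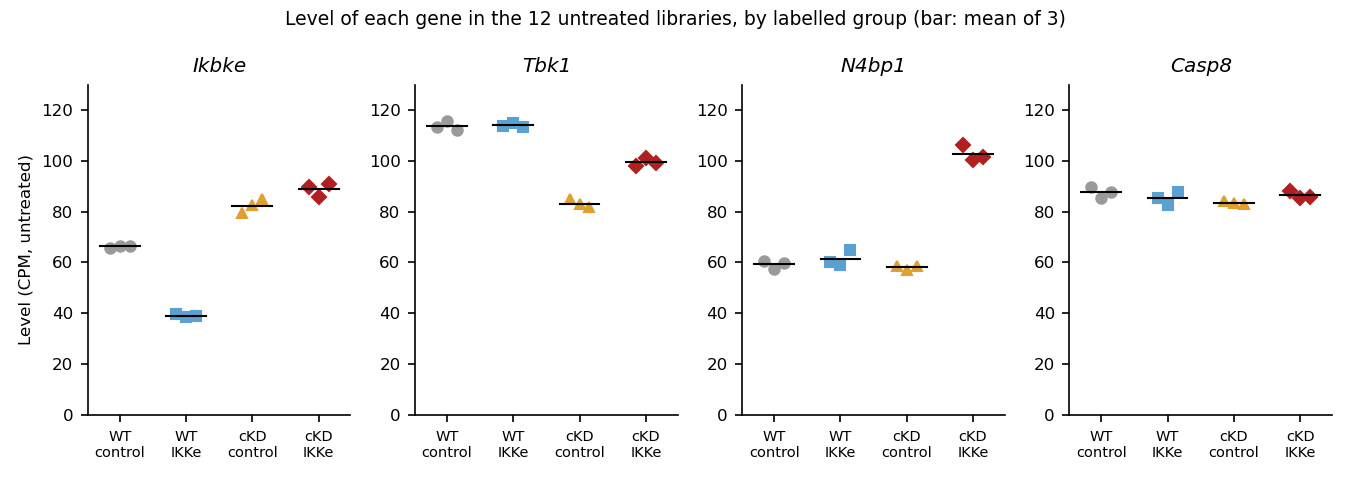
Level in CPM (vertical axis, from 0) of Ikbke, Tbk1, N4bp1 and Casp8 in the 12 untreated libraries, 1 point per library in 4 labelled groups of 3, with a bar at each mean. Ikbke is lower under the IKKe label in TBK1-WT (39.1 CPM against 66.3) and not in TBK1-cKD, where N4bp1 stands at 100.5 to 106 CPM under that label.

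Of 14256 genes tested, 4130 (29%) were called between the TBK1-cKD groups, 2264 higher (15.9%) and 1866 lower (13.1%) in the IKKe-labelled libraries. Every count within a list under this fit is to be read beside these 2 shares. Calls were 54.8% higher, and with upper-quartile scaling, which moved the median of all genes by -0.047 on the log2 scale, 37.9% were higher. The larger changes were mostly upward: 416 genes (2.92%) were at least 2-fold higher and 91 (0.638%) at least 2-fold lower, and at 4-fold the counts were 149 and 7. Genes with the larger changes in either direction started low. The median control level was 0.55 CPM for those 4-fold higher, 1.45 CPM for those 2-fold higher, 1.04 CPM for those 2-fold lower and 19.3 CPM for all genes tested. In 3149 genes (22.1%) all 3 IKKe-labelled libraries were above all 3 controls, and in 2889 (20.3%) all were below. The unadjusted p was under 0.05 for 5567 genes. A fit of all 24 libraries, the R837 libraries included, called 1670, of which 1145 were higher and 525 lower. The test against a minimum change of 1.2-fold called 1175 of the 14256 genes, 877 higher and 298 lower. List counts under these settings are to be read beside these smaller totals.

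The same label in TBK1-WT cells, in 6 other libraries of the same fit, gave 11 calls (0.0772%), 10 higher (0.0701%) and 1 lower (0.00701%), with 1817 genes at an unadjusted p under 0.05. The 1 lower gene was Ikbke. The 10 that rose were Dhx58, C3, Ms4a4c, Ifi44, Isg15, Gpr162, Ifi209, Bst2, H2-Q6 and Gm36161. All 10 also rose in TBK1-cKD cells and passed the test of a difference between the 2 genotypes: C3 rose by 0.62 in TBK1-WT and 4.64 in TBK1-cKD on the log2 scale, Isg15 by 0.64 and 1.92, Bst2 by 0.37 and 0.84. The TBK1-WT count hung on single libraries: it was 359 without IKKe knockout replicate 1 and 1 without control replicate 2. Testing the difference itself, the change under the IKKe label differed between TBK1-cKD and TBK1-WT for 2013 genes (14.1%), 1225 of them more positive in TBK1-cKD (8.59%) and 788 more negative (5.53%). Among the 4130 genes called in TBK1-cKD, 1916 (46.4%) passed that test, and among the 507 that moved at least 2-fold, 391 (77.1%). The median size of the log2 change over all genes was 0.134 in TBK1-cKD and 0.0716 in TBK1-WT. Across 14256 genes, which are not independent replicates, the 2 sets of log2 changes correlated at r = 0.133.

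**Figure D2:**
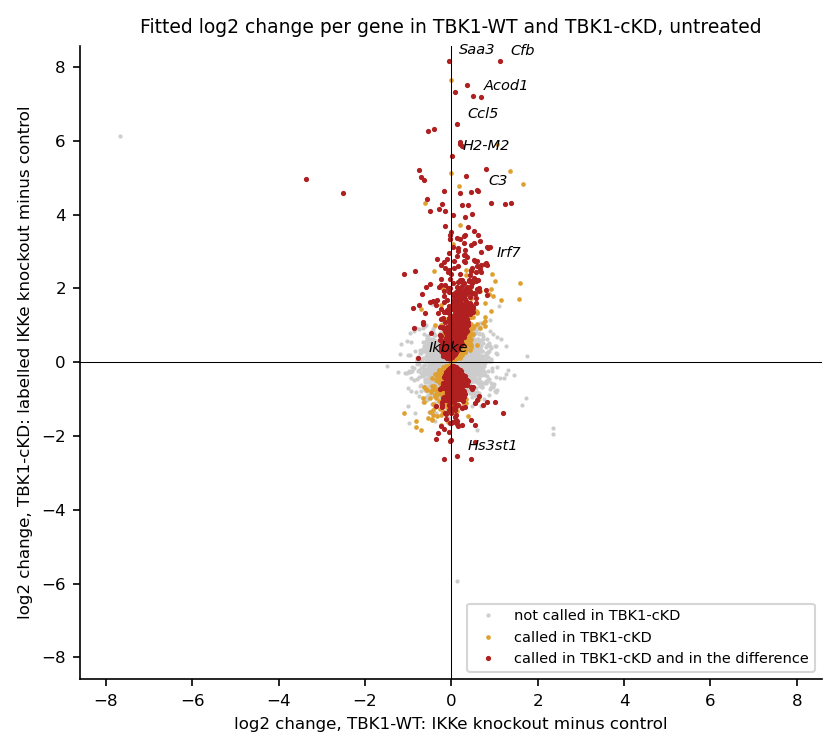
Fitted log2 change of each of 14256 genes under the IKKe label in TBK1-WT cells (horizontal axis) and in TBK1-cKD cells (vertical axis), untreated, 3 libraries per group; red genes passed the test of the difference as well. The cloud is drawn out along the vertical axis, with Saa3 at 8.18 in TBK1-cKD and -0.05 in TBK1-WT.

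The 15 genes named for the largest rises have varied products, from secreted proteins and receptors to enzymes. Saa3 (chr7:46711998-46715700), an acute phase serum amyloid, was at 2.68, 0.854 and 0.744 CPM in the controls and 519, 453 and 451 CPM in the IKKe-labelled libraries, a log2 change of 8.18 ± 0.22 (adjusted p = 3.01e-14). Hp, haptoglobin, was at 0.369, 0.407 and 0.165 CPM against 51.5, 53.7 and 52.3 CPM (log2 change 7.32 ± 0.13). For both genes even the lowest IKKe-labelled value is far above the highest control value. Cfb, complement factor B, had counts in only 1 control library (0.0493, 0 and 0 CPM) and was at 8.68, 7.14 and 6.84 CPM in the others. With so few control counts the ratio of the groups was 340, with a 95% counting interval of 93.8 to 2816. Acod1 was at 1.43, 1.02 and 1.28 CPM against 200.1, 185 and 180.1 CPM (log2 change 7.20 ± 0.09). Nos2, the inducible nitric oxide synthase, was at 0.0493, 0.0814 and 0.0827 CPM against 10.7, 10.1 and 10.6 CPM (log2 change 7.20 ± 0.26), and Ptges, prostaglandin E synthase, at 1.82, 1.55 and 2.36 CPM against 62.4, 62.0 and 62.7 CPM (log2 change 5.04 ± 0.10). For all 3 enzymes the groups were widely separated.

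Clec4e, which encodes Mincle, a receptor of mycobacterial glycolipids, was at 8.50, 8.10 and 7.36 CPM in the controls and 534, 498 and 475 CPM in the IKKe-labelled libraries (log2 change 5.96 ± 0.07, adjusted p = 4.67e-19). H2-M2 (chr17:37480851-37483552), a nonclassical MHC class I gene, was at 6.40, 5.21 and 6.33 CPM against 300.2, 286 and 289 CPM (log2 change 5.59 ± 0.06, adjusted p = 1.05e-19). These are the 2 smallest adjusted p among the 30 genes of largest rise or fall, and both genes were already above 5 CPM in every control. The chemokine gene Ccl5 was at 1.43, 1.14 and 1.08 CPM against 127, 106 and 98.1 CPM (log2 change 6.46 ± 0.21). The scavenger receptor gene Marco was at 0.468, 0.448 and 0.124 CPM against 14.7, 13.1 and 13.3 CPM (log2 change 5.21 ± 0.20). Among the others, the formyl peptide receptor genes Fpr1 (6.26 ± 0.35) and Fpr2 (7.53 ± 0.28), the Ras activator gene Rasgrp1 (6.31 ± 0.23), Ifi205 (5.24 ± 0.22) and Serpinb2 (4.83 ± 0.30) rose from control means under 1 CPM. Of these 15, 14 passed the test of the difference from TBK1-WT. Serpinb2 missed it (adjusted p = 0.115), and none of the 15 was called in TBK1-WT.

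The 15 genes named for the largest falls were mostly expressed at low levels and fell less than the risers rose. Hs3st1, a heparan sulfate sulfotransferase, led them at 2.04, 2.97 and 2.56 CPM in the controls against 0.333, 0.623 and 0.362 CPM (log2 change -2.53 ± 0.28, adjusted p = 1.81e-06). Il1rl1, the IL-33 receptor, was at 11.3, 15.3 and 14.9 against 4.05, 4.69 and 4.37 CPM (log2 change -1.65 ± 0.14), and Hbegf, a ligand of the EGF receptor, at 5.71, 10.5 and 9.06 against 2.21, 2.58 and 3.35 CPM (-1.60 ± 0.21). In each the highest IKKe-labelled value is below the lowest control value. The most abundant faller was Plau, urokinase, at 1670.0, 2058 and 1924 CPM against 673, 774 and 837.2 CPM (log2 change -1.31 ± 0.10, adjusted p = 1.4e-08). Nes, nestin, was at 354, 446 and 437 against 166, 178 and 185 CPM (-1.23 ± 0.10). Ccl2, the chemokine that recruits monocytes, was at 109.8, 128 and 109.7 against 44.1, 48.6 and 53.7 CPM (-1.25 ± 0.08), opposite in direction to Ccl5. Cd24a (-1.91 ± 0.12), Myh15 (-1.73 ± 0.11), Serpinb1a (-1.69 ± 0.15), Tpm2 (-1.65 ± 0.18), Ndnf (-1.48 ± 0.26), Asap2 (-1.40 ± 0.11) and Cd34 (-1.36 ± 0.13) fell too, as did the immediate early genes Egr3 (-1.29 ± 0.15) and Fosb (-1.27 ± 0.26). All 15 passed the test of the difference from TBK1-WT. Of the 15, 10 were higher in mean in the TBK1-cKD controls than in TBK1-WT controls, namely Plau, Nes, Ccl2, Hbegf, Tpm2, Asap2, Serpinb1a, Il1rl1, Hs3st1 and Egr3 (Plau 1884 ± 197 CPM against 1117 ± 105 CPM), while 5, Cd24a, Myh15, Cd34, Fosb and Ndnf, were lower (Cd24a 9.51 ± 0.930 against 19.3 ± 1.09 CPM), a pair of contrasts that was not tested.

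**Figure D3:**
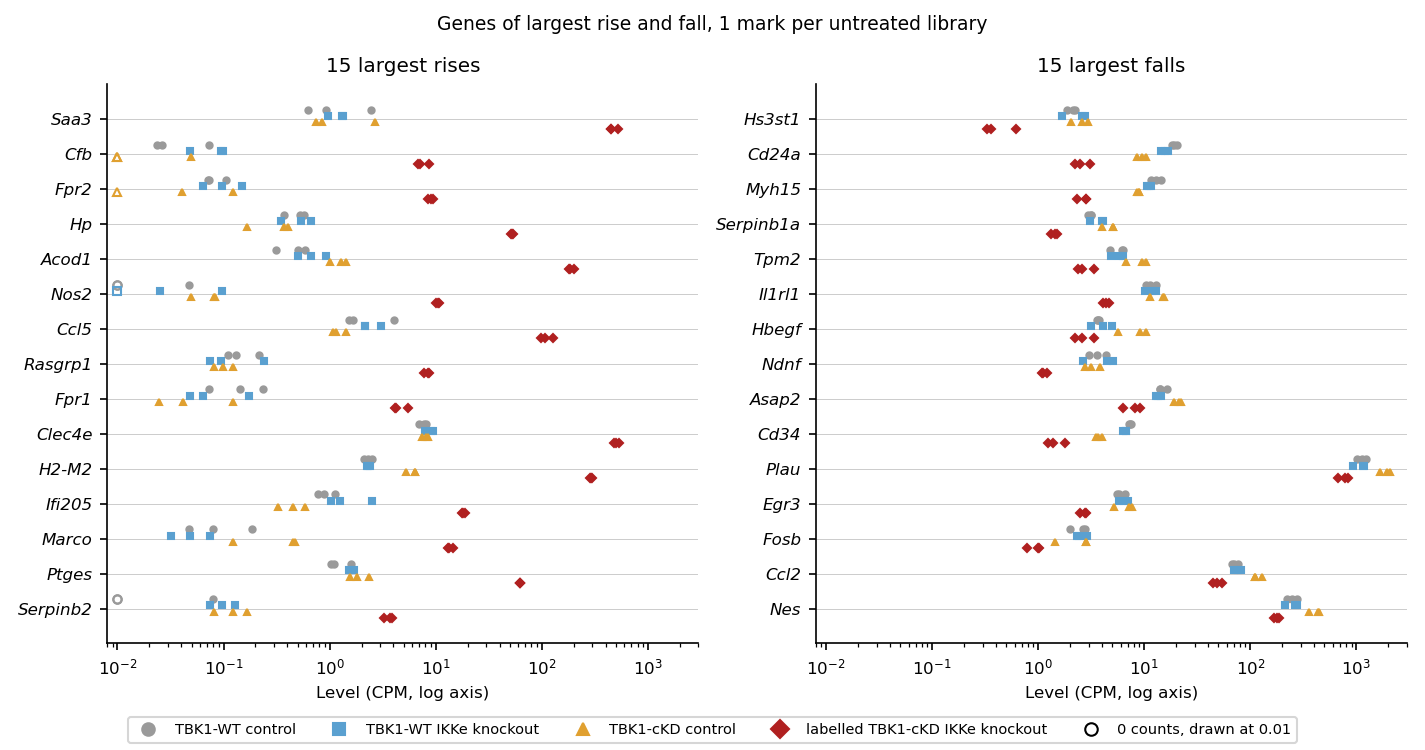
Level in CPM (logarithmic axis) of the 15 genes of largest rise (left) and the 15 of largest fall (right), 1 mark per untreated library in 4 labelled groups of 3; open marks are libraries with 0 counts, drawn at 0.01. In the left panel the 3 IKKe-labelled TBK1-cKD libraries stand alone to the right of the other 9 for every gene, with Saa3 at 451 CPM or more.

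Set beside ligand, the untreated level in the IKKe-labelled libraries was below that after R837 for most of these genes, by widely varying amounts. On the scale of all 24 libraries, Saa3 had a mean of 425 CPM untreated in the IKKe-labelled group and 4011 CPM after 8 h of R837 in TBK1-cKD control, which is 10.6% of it. For Acod1 the share was 11.6%, for Nos2 2.89% and for Fpr1 2.39%. Larger shares were those of Clec4e (38.1%), Rasgrp1 (44.6%), Ifi205 (49.8%) and Hp (53.7%). The median share over the 15 risers was 20.2%. Cfb (6.77 against 2.48 CPM, 273%) and H2-M2 (261 against 150.4 CPM, 174%) were the 2 above the R837 level. The cytokine gene Il1b, added here after its values were seen, was at 0.468, 0.285 and 0.827 CPM in the controls and 1.57, 1.66 and 1.05 CPM in the IKKe-labelled libraries, and rose by 1.45 ± 0.31 (adjusted p = 0.00182). Its untreated level was 0.0546% of the 2344 CPM that R837 gave. The share was 22.3% for Tnf, 11.9% for Cxcl10 and 26.4% for Ifit1. These shares are descriptions, with no test.

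Interferon-stimulated genes, listed like the other sets with earlier results of these data known, rose nearly as a block. Of 86 tested, 85 rose and 0 fell, beside 15.9% and 13.1% of all genes, and Ifitm1 alone was not called (log2 change 0.13 ± 0.33). Their summed level was 4436 to 5057 CPM in the controls and 10507 to 11507 CPM in the IKKe-labelled libraries. In TBK1-WT the sums were 6552 to 7546 CPM in controls and 7852 to 9512 CPM under the IKKe label. The TBK1-cKD controls therefore had the lowest sums of the 4 untreated groups and the IKKe-labelled TBK1-cKD libraries the highest, with no overlap between any 2 groups. The median log2 change was 1.32 in TBK1-cKD and 0.31 in TBK1-WT, and 80 of the 86 passed the test of the difference. Irf7, the interferon-inducible factor that TBK1 and IKKe phosphorylate, was at 49.8, 39.6 and 70.4 CPM against 381, 311 and 332 CPM (log2 change 2.69 ± 0.18, adjusted p = 3.13e-09). Ms4a4c was at 1.80, 1.38 and 2.23 against 16.1, 15.5 and 15.0 CPM (3.10 ± 0.17). Gbp2, a guanylate-binding protein of defence against intracellular microbes, was at 16.8, 14.4 and 13.6 against 112, 98.0 and 97.2 CPM (2.76 ± 0.12), and Zbp1, a sensor of Z-form nucleic acid, at 15.3, 10.9 and 13.6 against 66.8, 59.8 and 59.9 CPM (2.21 ± 0.12). The controls spread widely in Irf7, from 39.6 to 70.4 CPM, yet stayed far below the lowest IKKe-labelled value.

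The interferon genes themselves were not seen to move at this depth. None of 19 type I and III interferon genes passed the filter, and 17 had 0 counts in all 6 libraries, which allows up to 0.0336 CPM in the controls and 0.0343 CPM in the IKKe-labelled group by counting error alone. Ifnb1, interferon beta, had 2 counts over the controls and 2 over the IKKe-labelled libraries, and Ifnk 0 and 2. Ifng also had 0 counts in both groups. Among receptors and signal transducers, 19 of 22 rose and 0 fell (median 0.37), 10 and 0 against a minimum change of 1.2-fold, and 12 passed the test of the difference. Stat2, which carries the interferon receptor's signal to the nucleus, was at 98.2, 85.8 and 95.9 against 215, 199 and 205 CPM (1.14 ± 0.07). The feedback inhibitor gene Socs3 was at 0.788, 0.732 and 0.662 against 9.25, 8.77 and 7.82 CPM (3.54 ± 0.18, adjusted p = 1.14e-10), and Usp18, which restrains the interferon receptor, at 16.1, 11.5 and 13.8 against 51.3, 44.7 and 47.0 CPM (1.77 ± 0.13). Stat6 (0.04 ± 0.03), Stat5b (0.06 ± 0.04) and Pias1 (0.08 ± 0.04) were not called.

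The DNA upstream of 4 risers is shown to let the 2 groups, interferon-stimulated and NF-kB-associated, be read at sequence level. They are Ifit1, Cxcl10 and Gbp5 of the first list and Nfkbia of the second, chosen after their values were seen. Ifit1 was at 18.3, 10.5 and 14.8 CPM in the controls and 93.8, 76.4 and 82.3 CPM in the IKKe-labelled libraries (log2 change 2.50 ± 0.20), Cxcl10 at 3.40, 1.51 and 1.74 against 26.3, 21.6 and 24.8 CPM (3.35 ± 0.27), and Gbp5 at 2.04, 0.854 and 1.70 against 29.4, 23.7 and 24.4 CPM (4.01 ± 0.22). In none of the 3 do the groups overlap. The 250 bases before each gene start are given 5′ to 3′ on the gene's strand, from RefSeq promoters of GRCm38.p6, with capitals marking each match on either strand to GAAANNGAAA, the core of an interferon-stimulated response element, or to the kappa B consensus bound by NF-kB. The positions are, in order, chr19:34640639-34640888 (+), chr5:92348890-92349139 (-), chr3:142496684-142496933 (+) and chr12:55492648-55492897 (-).
Ifit1: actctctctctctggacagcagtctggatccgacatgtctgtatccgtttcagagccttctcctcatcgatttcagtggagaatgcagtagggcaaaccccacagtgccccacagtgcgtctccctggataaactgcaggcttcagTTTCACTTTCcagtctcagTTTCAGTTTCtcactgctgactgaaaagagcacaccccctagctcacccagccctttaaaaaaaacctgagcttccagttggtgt
Cxcl10: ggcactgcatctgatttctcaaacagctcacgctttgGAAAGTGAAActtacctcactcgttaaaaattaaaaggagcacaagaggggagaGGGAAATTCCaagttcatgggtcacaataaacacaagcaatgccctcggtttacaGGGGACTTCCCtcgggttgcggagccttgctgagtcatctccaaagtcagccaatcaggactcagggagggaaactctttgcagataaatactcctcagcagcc
Gbp5: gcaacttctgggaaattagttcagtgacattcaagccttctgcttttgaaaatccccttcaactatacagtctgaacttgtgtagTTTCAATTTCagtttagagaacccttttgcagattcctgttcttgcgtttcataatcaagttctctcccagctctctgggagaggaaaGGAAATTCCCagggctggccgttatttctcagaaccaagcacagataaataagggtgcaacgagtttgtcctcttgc
Nfkbia: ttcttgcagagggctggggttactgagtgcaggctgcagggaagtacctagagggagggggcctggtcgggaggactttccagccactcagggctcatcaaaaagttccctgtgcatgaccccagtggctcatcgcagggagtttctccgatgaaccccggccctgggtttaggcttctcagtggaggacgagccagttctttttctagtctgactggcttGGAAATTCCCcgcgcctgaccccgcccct
Ifit1 has 2 matches to GAAANNGAAA, both on the opposite strand, from 104 to 95 and from 85 to 76 bases before the start, and no kappa B match. Cxcl10 and Gbp5 have 1 GAAANNGAAA match each. Cxcl10 has kappa B matches at 2 places, the one nearer the start read on overlapping letters and both strands, and Gbp5 has 1. Nfkbia has 1 kappa B match, from 29 to 20 bases before the start. Of the upstream windows of 27025 RefSeq genes, 3.46% held GAAANNGAAA and 8.23% the kappa B consensus. In the NF-kB list 22 of 27 genes had a window, of which 13 (59.1%) held the kappa B consensus and 0 the other motif. For MHC class I presentation 19 of 22 had one, with 47.4% and 15.8%, and for cell cycle genes 36 of 45, with 8.33% and 2.78%. Only 67 of 86 interferon-stimulated genes were matched (77.9%), under the 80% needed here for giving a share. A match of letters is a description and shows no binding.

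Antigen presentation genes rose in both classes. For MHC class I, 20 of 22 tested rose and 2 fell, and 20 passed the test of the difference. H2-K1, a classical heavy chain, was at 782, 802 and 852 CPM against 1941, 1776 and 1756 CPM (1.17 ± 0.05), and B2m, the shared light chain, at 1982, 1988 and 2094 against 3394, 3292 and 3324 CPM (0.72 ± 0.04). H2-Q6 (3.56 ± 0.09) and H2-Q7 (3.30 ± 0.15) rose most among these 22 on the log2 scale, from low levels, and reads of near-identical H2-Q genes may be split between them. The 2 that fell, Calr (-0.18 ± 0.04) and Pdia3 (-0.16 ± 0.03), encode general chaperones of the endoplasmic reticulum. For MHC class II and costimulation, 15 of 16 rose and 0 fell, with a median of 1.34 in TBK1-cKD and 0.13 in TBK1-WT. Cd74, the invariant chain, was at 163, 166 and 172 against 469, 409 and 382 CPM (1.33 ± 0.06), H2-Aa at 37.2, 38.3 and 38.5 against 120.1, 109 and 104 CPM (1.55 ± 0.07) and their transactivator Ciita at 2.71, 3.01 and 3.35 against 9.55, 9.89 and 9.01 CPM (1.67 ± 0.12). Cd40, the costimulatory receptor, rose by 1.41 ± 0.08, and Cd80 was not called (0.19 ± 0.08). Summed over the whole list, costimulation genes included, levels were 376 to 404 CPM in the controls and 884 to 1021 CPM in the IKKe-labelled libraries. They were 409 to 508 CPM in the 6 TBK1-WT libraries. Fewer cells of a kind and less RNA per cell cannot be told apart in such bulk samples, nor can more cells and more RNA.

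Among NF-kB subunits, inhibitors and feedback genes, 21 of 27 rose and 0 fell (median 0.69), and 19 passed the test of the difference. Nfkbia, which encodes the inhibitor IkB alpha and is itself an NF-kB target, was at 60.6, 57.7 and 55.6 CPM against 166, 156 and 149 CPM (1.44 ± 0.06, adjusted p = 1.51e-11). Nfkbie was at 27.3, 27.8 and 27.5 against 93.6, 89.5 and 85.9 CPM (1.70 ± 0.05) and Traf1, an adaptor of TNF receptors, at 7.76, 6.84 and 7.86 against 50.7, 50.7 and 51.1 CPM (2.76 ± 0.06). In all 3 the groups are widely separated and the controls lie close together. Sod2 (1.62 ± 0.04), the adhesion molecule gene Icam1 (1.56 ± 0.04) and Tnfaip2 (1.21 ± 0.04) rose too. Tnip3 (0.16 ± 0.09), Rc3h1 (-0.02 ± 0.04) and Cd83 (-0.02 ± 0.05) were not called. Of the canonical kinase complex and its activators, 9 of 17 rose and 0 fell, 4 with all 24 libraries fitted and 2 against a minimum change of 1.2-fold. The test of the difference was passed by 2 of the 17, beside 14.1% of all genes. The kinase subunit genes Ikbkb (0.04 ± 0.03) and Ikbkg (0.03 ± 0.03) were not called, while the ubiquitin ligase genes Birc3 (32.4, 31.0 and 33.7 against 86.8, 85.7 and 78.6 CPM, 1.37 ± 0.05) and Birc2 (0.46 ± 0.05) and the LUBAC subunit gene Rnf31 (0.33 ± 0.04) rose.

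Among TBK1 and IKKe themselves with their adaptors and substrates, 13 of 19 rose and 2 fell (median 0.17), with 6 and 0 when all 24 libraries were fitted and 4 and 0 against a minimum change of 1.2-fold. The adaptors Tank (69.2, 62.9 and 61.1 against 87.2, 85.4 and 84.8 CPM, 0.41 ± 0.05) and Azi2 (0.32 ± 0.04) rose, and so did Traf2 (0.52 ± 0.06), Tmem173, which encodes STING (0.34 ± 0.04), and the autophagy receptor gene Sqstm1 (479, 460.0 and 462 against 659, 631 and 619.6 CPM, 0.45 ± 0.03). Irf3, the other substrate, was at 42.2, 42.9 and 46.5 against 45.0, 44.4 and 44.7 CPM and not called (0.03 ± 0.05), unlike Irf7. Ticam1, which encodes TRIF, was not called either (0.06 ± 0.06). Ddx3x (-0.15 ± 0.03) and Ndfip1 (-0.11 ± 0.04) fell slightly. Of cytosolic nucleic acid sensing genes, 13 of 18 rose and 1 fell, 8 and 1 against a minimum change of 1.2-fold. The RNA sensor genes Ddx58 (59.3, 50.4 and 53.6 against 149, 138 and 137 CPM, 1.37 ± 0.08) and Ifih1 (1.07 ± 0.07) rose, as did Samhd1 (0.57 ± 0.04). Enpp1, which hydrolyses the second messenger cGAMP, fell by 0.51 on the log2 scale (adjusted p = 1.55e-06).

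Toll-like receptor genes rose in part: 19 of 32 genes of the pathway were higher (59.4%) and 3 lower (9.38%), beside 15.9% and 13.1% of all genes. Against a minimum change of 1.2-fold the counts were 9 and 1. Tlr2, the receptor of bacterial lipopeptides, was at 68.5, 55.5 and 56.2 CPM against 225, 209 and 202 CPM (1.81 ± 0.08, adjusted p = 2.84e-11). Tlr9 was at 18.3, 15.5 and 19.5 against 31.3, 28.5 and 28.6 CPM (0.73 ± 0.07), with 44.3 ± 2.01 CPM in TBK1-WT controls. The adaptor gene Myd88 (0.38 ± 0.03), Cd14 (0.45 ± 0.05) and Unc93b1 (0.44 ± 0.04), which carries nucleic acid receptors to endosomes, rose. Tlr13, among the most abundant, was not called (0.01 ± 0.03). Tlr5 (-1.15 ± 0.24), the chaperone gene Hsp90b1 (-0.31 ± 0.04) and Tollip (-0.13 ± 0.04) fell.

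Inflammatory cytokine and chemokine genes moved both ways, 17 of 30 higher and 6 lower (median 0.57), 15 and 3 against a minimum change of 1.2-fold. Tnf was at 28.7, 29.1 and 26.5 CPM against 56.4, 57.2 and 54.8 CPM (1.0 ± 0.06, adjusted p = 7.84e-10). Its TBK1-WT libraries had means of 21.9 ± 0.949 and 21.8 ± 1.98 CPM, and the 2 changes differed (adjusted p = 3.08e-07). The neutrophil chemoattractant gene Cxcl2 was at 2.88, 2.97 and 2.61 against 19.7, 19.6 and 16.8 CPM (2.72 ± 0.13), and Cxcl1 at 0.394, 0.651 and 0.455 against 2.84, 2.45 and 2.66 CPM (2.45 ± 0.19). Cxcl16 (176, 159 and 175 against 413, 397 and 387 CPM, 1.23 ± 0.04) and Ccl9 (1049, 1099.5 and 1015 against 1679.9, 1718 and 1657 CPM, 0.68 ± 0.03) rose from higher levels. Besides Ccl2, the genes that fell were Ccl7 (38.8, 44.8 and 36.0 against 19.2, 19.6 and 24.5 CPM, -0.92 ± 0.10), Ccl3 (-0.22 ± 0.04), Ccl4 (-0.27 ± 0.05), Vegfa (-1.16 ± 0.31) and Pf4 (-0.33 ± 0.07). Ccl2 and Ccl7 encode ligands of the receptor CCR2. Ccr2 itself was at 38.7, 40.8 and 45.7 against 27.0, 29.1 and 24.9 CPM (-0.63 ± 0.06), where TBK1-WT controls had 131 ± 1.08 CPM. Il1rn (-0.25 ± 0.11) and Tgfb1 (0.10 ± 0.04) were not called.

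Inflammasome genes were higher in 11 of 16 and lower in 0, 7 against a minimum change of 1.2-fold. Mefv, the pyrin gene, was at 0.911, 0.407 and 0.331 CPM against 6.38, 5.57 and 5.26 CPM (3.24 ± 0.22). Casp4, the caspase-11 gene that senses cytosolic lipopolysaccharide, was at 17.1, 14.7 and 14.0 against 34.6, 33.4 and 32.6 CPM (1.12 ± 0.08), and Gsdmd, which encodes the pore-forming gasdermin D, at 70.2, 71.5 and 67.1 against 112, 107 and 111 CPM (0.66 ± 0.04). Ninj1, needed for membrane rupture, rose by 0.80 ± 0.08, and the adaptor gene Pycard was not called (-0.01 ± 0.04). Of the genes around N4BP1, caspase-8 and cell death, 10 of 27 rose (37%) and 3 fell (11.1%), beside 15.9% and 13.1% of all genes, so the share that fell is near that of all genes. Cflar, the caspase-8 regulator cFLIP, was at 123, 121 and 124 against 175, 173 and 172 CPM (0.50 ± 0.03), Fas at 2.81, 1.67 and 1.78 against 8.68, 7.06 and 7.86 CPM (1.86 ± 0.16) and Tnfrsf1b, TNF receptor 2, at 619, 632 and 669 against 994, 960.2 and 938 CPM (0.59 ± 0.04). Neither Ripk1 (0.09 ± 0.03) nor Tnfrsf1a, TNF receptor 1 (0.05 ± 0.04), was called. Those that fell were Ripk3 (33.6, 35.1 and 31.4 against 26.7, 28.5 and 27.7 CPM, -0.27 ± 0.06) and the anti-apoptotic genes Bcl2 (26.5, 24.05 and 25.5 against 16.0, 16.8 and 18.4 CPM, -0.57 ± 0.06) and Bcl2l1 (-0.38 ± 0.03). The pro-apoptotic gene Bcl2l11 rose (0.50 ± 0.04).

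Antimicrobial and immunometabolic effector genes rose in 22 of 27 and fell in 0 (median 0.57). Apart from Saa3, Hp, Acod1, Nos2 and Ptges, they included the oxidase subunit gene Cybb (860.0, 819.6 and 887 CPM against 2152, 2121 and 2097 CPM, 1.31 ± 0.04) and the cystine transporter gene Slc7a11 (5.20, 5.70 and 4.80 against 16.7, 20.3 and 19.5 CPM, 1.84 ± 0.09). Hif1a (0.01 ± 0.03) was not called. In the complement list 7 of 17 rose and 1 fell. C3, the central component, was at 31.0, 27.1 and 29.2 CPM against 779, 700.2 and 700.2 CPM (4.64 ± 0.08, adjusted p = 1.21e-16), and 1 of the C1q chain genes, C1qa, at 799, 841 and 955 against 1488, 1312 and 1338 CPM (0.67 ± 0.06). The regulator gene Cd55 rose by 1.38 ± 0.19. Of macrophage identity genes, 19 of 33 rose and 2 fell. Csf1r was at 1961, 1866 and 2029.6 against 2957, 2829 and 2741 CPM (0.54 ± 0.04), Apoe at 1577, 1668 and 1926 against 3182, 2919.8 and 2930.0 CPM (0.80 ± 0.07) and Axl, which clears dying cells, at 95.8, 104 and 105 against 198, 185 and 182 CPM (0.90 ± 0.05). The scavenger receptor gene Cd36 (3067, 3111 and 3016 against 2182, 2332 and 2344 CPM, -0.42 ± 0.04) and the mannose receptor gene Mrc1 (-0.39 ± 0.07) fell. The cathepsin genes Ctsb (-0.02 ± 0.03) and Ctsd (-0.01 ± 0.03), among the most abundant genes, were not called. Alternative activation genes went 3 up (23.1%) and 4 down (30.8%) of 13, beside 15.9% and 13.1% of all genes.

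Cell cycle genes were lower in 29 of 45 and higher in 0, by small amounts (median -0.24). With all 24 libraries fitted 5 were lower, where 525 of all genes were. Against a minimum change of 1.2-fold 2 were lower, where 298 of all genes were. Ccnd1, cyclin D1, was at 763, 818 and 808 CPM against 518, 531 and 559 CPM (-0.57 ± 0.04, adjusted p = 2.08e-08). Cenpf, a mitotic kinetochore gene, was at 73.2, 69.9 and 60.5 against 44.4, 45.5 and 45.5 CPM (-0.59 ± 0.09), and Cdk1 at 100.2, 99.6 and 94.2 against 73.2, 78.1 and 78.1 CPM (-0.36 ± 0.05). Cdk4 (-0.04 ± 0.03) and the replication helicase genes Mcm5 (-0.14 ± 0.05) and Mcm6 (-0.11 ± 0.05) were not called. Of the 45, 6 passed the test of the difference, close to the 14.1% of all genes that did. The TBK1-WT median was -0.07. Summed levels were 4132 to 4496 CPM in the controls, 3471 to 3677 CPM in the IKKe-labelled libraries and 4353 to 4860 CPM in TBK1-WT.

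Genes of the ATF4 and unfolded protein responses were lower in 17 of 30 and higher in 2, 9 and 2 with all 24 libraries and 4 and 2 against a minimum change of 1.2-fold. The amino acid synthesis genes Asns (38.4, 41.7 and 35.0 against 22.4, 23.7 and 26.3 CPM, -0.67 ± 0.07) and Psat1 (59.3, 70.2 and 58.5 against 33.8, 41.2 and 38.8 CPM, -0.72 ± 0.07) fell, and so did the folate enzyme gene Mthfd2 (-0.45 ± 0.06) and the chaperone genes Sdf2l1 (-0.37 ± 0.05) and Pdia6 (-0.31 ± 0.04). Ddit3, which encodes CHOP, rose (17.6, 18.1 and 16.5 against 29.5, 30.2 and 30.2 CPM, 0.78 ± 0.06), as did Slc7a11. Immediate early and MAPK feedback genes went 5 up (17.2%) and 12 down (41.4%) of 29, beside 15.9% and 13.1% of all genes. The counts were 2 and 9 with all 24 libraries and 1 and 5 against a minimum change of 1.2-fold. Upper-quartile scaling, or leaving out control replicate 1, IKKe-labelled replicate 1 or IKKe-labelled replicate 3, left 3 up. Egr1 was at 19.8, 21.0 and 26.3 against 12.2, 10.8 and 13.4 CPM (-0.86 ± 0.11), the ERK phosphatase gene Dusp5 at 18.00, 25.9 and 25.1 against 12.8, 13.7 and 12.6 CPM (-0.81 ± 0.12) and Fosl2 at 107, 151 and 149 against 87.3, 87.1 and 88.8 CPM (-0.62 ± 0.12). The controls spread widely in the last pair, with replicate 1 lowest, without reaching the IKKe-labelled values. The summed level of the list, too, was lowest in replicate 1 in all 4 untreated groups, at 2742 CPM against 3053 and 3048 CPM among these controls. Junb (0.49 ± 0.08) and Fos (0.26 ± 0.05) rose, and Jun was not called (-0.05 ± 0.08).

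Glycolysis and HIF1 target genes gave no stable count. Of 28 tested, 7 fell and 0 rose, with a median of -0.40 in TBK1-cKD and 0.46 in TBK1-WT. Slc2a1, the glucose transporter GLUT1, was at 127, 397 and 351 CPM in controls 1 to 3 against 116, 137 and 160.2 CPM (-1.08 ± 0.36, adjusted p = 0.0341). Control replicate 1 lies among the IKKe-labelled values while controls 2 and 3 are above them, and the same is seen for Ankrd37 (14.8, 43.9 and 32.8 against 12.2, 14.1 and 16.0 CPM). Without control replicate 1 the list had 23 lower genes, and without any other single library of the 6 it had 1 to 3. The count was 11 with the 6 libraries alone, 25 with no filter, 3 by DESeq2, 3 by limma-voom and 2 against a minimum change of 1.2-fold. In each of the 4 untreated groups the library numbered 1 in record order had the lowest summed level. In TBK1-cKD it was 4230 CPM against 7021 and 6733 CPM among controls, and 4365 against 4702 and 4826 CPM among IKKe-labelled libraries. In TBK1-WT it was 3514 against 4359 and 4264 CPM among controls, and 3620 against 6096 and 6105 CPM under the IKKe label. The labels give no batch, and the part of such a shared difference in the count was not tested. Vegfa, which this list shares with the cytokines, had the same control spread (59.7, 140.4 and 131 against 41.3, 47.6 and 57.5 CPM), without overlap.

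**Figure D4:**
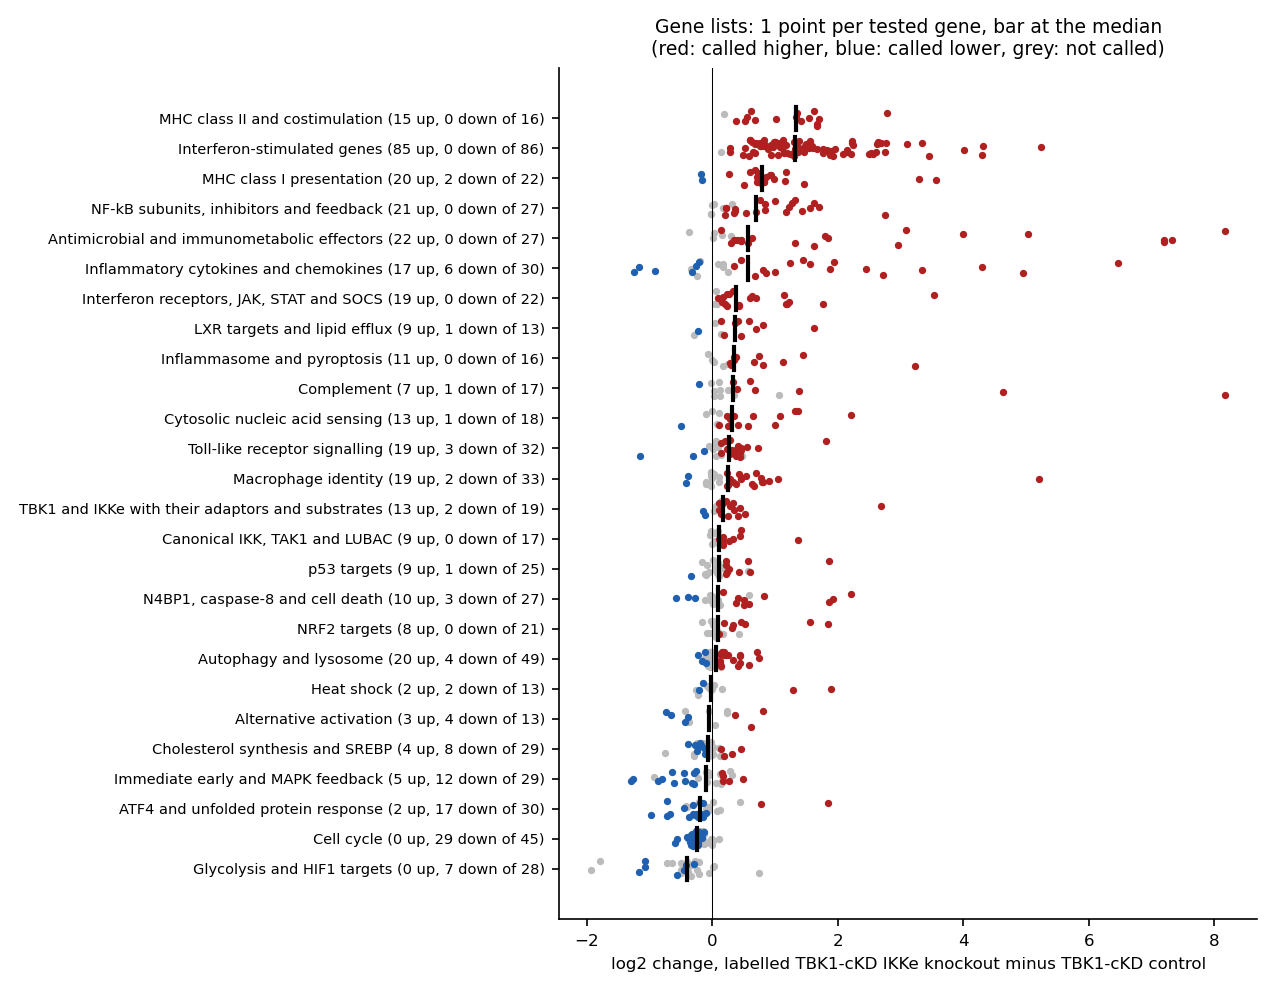
Log2 change between the TBK1-cKD groups (horizontal axis) of each tested gene in 26 lists, ordered by the median (black bar), with called genes in red (higher) or blue (lower) and uncalled genes in grey. The interferon-stimulated and MHC class II lists lie almost wholly to the right, with medians of 1.32 and 1.34, and the cell cycle list to the left at -0.24.

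**Figure D5:**
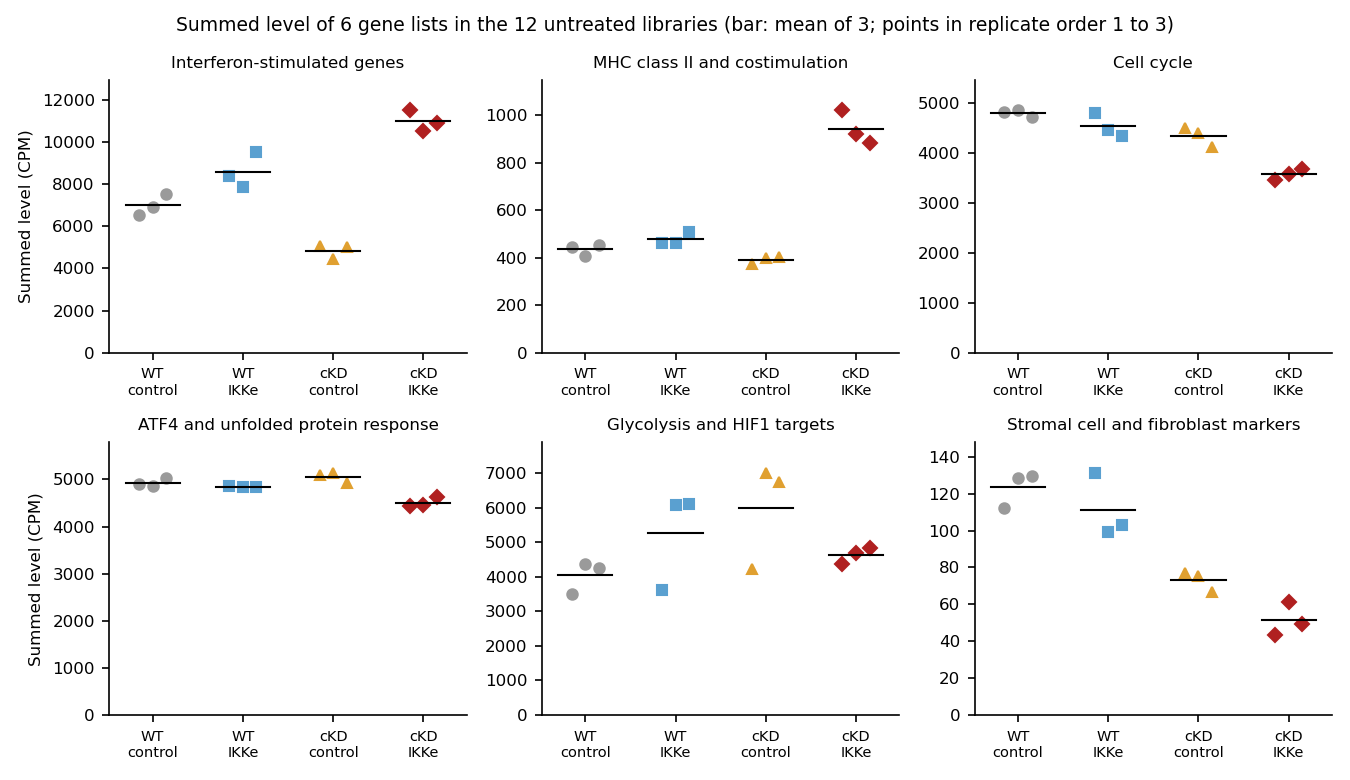
Summed level in CPM (vertical axis, from 0) of 6 lists in each of the 12 untreated libraries, by labelled group, with a bar at the mean of 3. The interferon-stimulated sums separate all 4 groups, while in the glycolysis panel control replicate 1 of TBK1-cKD, at 4230 CPM, lies apart from the other 2 controls, and replicate 1 is lowest in every group.

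Of 140 markers of other cell types 71 passed the filter, of which 12 rose and 18 fell, 42.3% beside 29% of all genes. Of 11 tested neutrophil markers, 3 rose. Mmp9 was at 93.4, 113 and 101 CPM against 1039, 1032 and 1053 CPM (3.35 ± 0.08, adjusted p = 4.35e-15), with Csf3r (1.10 ± 0.08) and Mmp8 (0.51 ± 0.13) the others. Of the list, Ly6g, Retnlg, Ctsg, Stfa1 and Stfa2 had 0 counts in all 6 libraries. S100a8 (1.08, 1.18 and 1.12 against 1.39, 1.04 and 1.25 CPM) passed the filter and was not called. The same holds for S100a9, Mpo, Ngp, Ltf, Cxcr2, Lcn2 and Padi4. Summed, the list was 131 to 156 CPM in the controls and 1112 to 1130 CPM in the IKKe-labelled libraries, nearly all of it Mmp9. Mmp9 is also an osteoclast marker, and in that list 5 of 10 rose, among them Acp5 (27.3, 28.4 and 27.4 against 65.2, 64.9 and 65.8 CPM, 1.24 ± 0.06), and 2 fell. Against a minimum change of 1.2-fold, 3 rose and 1 fell. The osteoclast sums were 1137 to 1168 CPM against 2065 to 2095 CPM, a gap close to that of Mmp9 alone (93.4 to 113 against 1032 to 1053 CPM). Of 16 stromal and fibroblast markers, 7 fell and 1 rose, 4 and 1 with all 24 libraries, against a minimum change of 1.2-fold or without IKKe-labelled replicate 1. Col1a1 was at 10.8, 9.28 and 8.68 against 4.23, 7.19 and 3.88 CPM (-0.96 ± 0.18). Their sums were 66.7 to 77.1 CPM in the controls, 43.1 to 61.4 CPM in the IKKe-labelled libraries and 99.5 to 131 CPM in TBK1-WT, with Lepr at 0 in the 6. The progenitor marker Cd34 was at 3.97, 3.54 and 3.64 against 1.39, 1.79 and 1.25 CPM, and the sums of its list of 12 were 5.87 to 7.39 CPM against 3.88 to 4.02 CPM. Of 5 monocyte markers tested Treml4 rose and Ccr2 fell, of 7 dendritic cell markers Zbtb46 and Bst2 rose and Cd24a fell, and of 8 lymphocyte markers Cd4 rose and Ighm fell (40.3, 32.4 and 34.3 against 17.4, 16.9 and 12.7 CPM), with Cd3e, Cd3g, Trac, Ncr1 and Gzma at 0. Mast cell markers had Kit lower of 4 tested. Of 5 endothelial markers Vwf and Egfl7 fell, and of 5 erythroid and megakaryocyte markers Car2 rose while Pf4 and Ppbp fell. The calls of Kit, Egfl7, Zbtb46 and Ppbp, all of low genes, were each lost without several of the 6 libraries in turn, and that of Car2 without control replicate 1. The part of these markers in the results above was not tested.

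Among the other genes named, a few calls also rested on single libraries. Those of Slc2a1 and Ankrd37 were lost without any 1 of the 6 libraries other than control replicate 1, and that of Vegfa without control replicate 2 or IKKe-labelled replicate 1. Those of Tollip, Ndfip1, Ctsa and Hsph1, all small falls, were each lost without 3 or more of the libraries in turn.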

How the data were processed

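The deposited files hold, for each library, whole-number counts of reads per Ensembl gene and RPKM values, made by the authors from 50 bp single-end TruSeq v2 reads of 0.5 ug RNA, aligned with GSNAP to GRCm38 as the submitters' processing notes have it. For the counter, its annotation and filters, nothing is stated. The RPKM values deposited by the authors were not tested. The kit does not mark strand, so overlapping and antisense genes, and near-identical families such as H2-Q, Saa and Gbp, are uncertain. Identifiers without a symbol (233 of 52636) held 0.019% of counts.

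Groups were taken from the titles, and replicate numbers follow the order of records and were not used to pair libraries. Counts of the 12 untreated libraries (20.3 to 40.9 M, 3 per group) were fitted together in edgeR 4.0.16 under R 4.3.3, with 1 mean per group, TMM scaling, filterByExpr (minimum count 10, minimum total 15) and the quasi-likelihood F test, adjusted by Benjamini-Hochberg over all 14256 genes at a threshold of 0.05. With 8 residual degrees of freedom, the common biological coefficient of variation came to 0.0464. The fit was also run on simulated counts, drawn independently for each library with no difference shared by replicates. That run therefore cannot speak to such a shared difference. The R837 libraries were left out of this fit because an earlier look at these data found groups of mixed nuclear RNA level among them. Alternatives were all 24 libraries, the 6 compared alone, RLE and upper-quartile scaling, no filter, a filter of 1 CPM in 3 libraries, DESeq2 1.42.0, limma-voom (limma 3.58.1), glmTreat at 1.2-fold and leaving out each library, the 6 TBK1-WT ones added after seeing the data.

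Genes were named by rule: Ikbke, Tbk1, N4bp1 and Casp8, then the 15 largest rises and falls among called genes with groups that do not overlap and at least 2 CPM in the higher group (1 Rik model skipped), then per list up to 6 called genes per direction by p and 3 uncalled by level. That made 336 genes, 236 of them called and 231 of those without overlap, and a few of them are not reported here. The comparison, the lists and the genes were chosen with earlier results of these data known. Upper limits at 0 counts use 3 counts over a group, and they and the 95% interval cover counting error only. Coordinates are GENCODE vM21 on GRCm38.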

Additional observations from a re-analysis of the deposited data

Results flagged for a closer look

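The change under the IKKe label differed between TBK1-cKD and TBK1-WT for 2013 genes, by edgeR's quasi-likelihood test of the difference of the 2 changes with Benjamini-Hochberg adjustment. The genes named first that passed it are given with that difference in log2 (TBK1-cKD minus TBK1-WT), and in none was a cause tested. Ikbke differed by 0.87, N4bp1 by 0.77 and Tbk1 by 0.25. Among the 15 largest rises the difference was 8.23 for Saa3, 7.24 for Hp, 7.17 for Fpr2, 7.03 for Cfb, 6.79 for Fpr1, 6.70 for Rasgrp1, 6.69 for Acod1, 6.51 for Nos2 and 6.33 for Ccl5. It was 5.95 for Marco, 5.76 for Clec4e, 5.58 for H2-M2, 4.69 for Ptges and 4.44 for Ifi205. Among the 15 largest falls it was -2.66 for Hs3st1, -1.94 for Serpinb1a, -1.73 for Hbegf, -1.64 for Il1rl1, -1.61 for Cd24a, -1.61 for Tpm2, -1.58 for Ndnf and -1.49 for Myh15. Smaller falls against TBK1-WT were -1.38 for Egr3, -1.34 for Ccl2, -1.30 for Fosb, -1.26 for Asap2, -1.26 for Plau, -1.24 for Nes and -1.22 for Cd34. Ikbke fell in TBK1-WT and rose slightly in TBK1-cKD, where its call was lost in 9 of 15 alternative settings.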

How the results depend on the processing

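The count of called genes (4130) was 1670 with all 24 libraries and 1175 by glmTreat at 1.2-fold, and 3060 to 3835 when 1 of the 6 libraries was left out. Higher genes were 1145 and 877 under the first 2 settings, lower genes 525 and 298, and upper-quartile scaling gave 2917 lower. The count in TBK1-WT (11) was 0 with all 24 libraries, 527 with no filter and 79 by DESeq2, and from 1 to 359 with 1 library left out. The difference count (2013) was 688 with all 24 libraries. The causes were not tested. Of 236 called genes named, 154 stayed called under every alternative run and 82 were lost under at least 1, 79 of these under glmTreat. Of 100 uncalled, 34 were called under at least 1. The change kept its sign in all 236 called genes and crossed 0 in 29 uncalled ones. No paired analysis was run, as the labels give no replicate numbers and the numbers used here follow the order of records only. In that order each run of 8 records holds the 8 groups once. Replicate 1 had the lowest sum in all 4 untreated groups for the glycolysis, immediate early, LXR, heat shock and endothelial lists. What a block by record order would change was not tested. With 3 libraries per group, weakly expressed genes are least certain: 88 of the 149 genes that were 4-fold higher had control means under 1 CPM.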

Other observations

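Lists of metabolism and stress responses gave mixed counts. LXR target and lipid efflux genes rose in 9 of 13 and fell in 1, 5 and 0 against a minimum change of 1.2-fold. Nr1h3, which encodes LXR alpha, was at 28.8, 24.5 and 27.7 CPM in the controls and 89.3, 84.0 and 77.7 CPM in the IKKe-labelled libraries (1.63 ± 0.07, adjusted p = 9.49e-12, edgeR quasi-likelihood), and the cholesterol exporter gene Abca1 at 627, 656 and 720.1 against 1077, 1111 and 1064 CPM (0.70 ± 0.06). In both the groups do not overlap. Lpl, lipoprotein lipase, fell by 0.23 on the log2 scale. Cholesterol synthesis genes went 4 up (13.8%) and 8 down (27.6%) of 29, beside 15.9% and 13.1% of all genes. The counts were 1 and 1 with all 24 libraries and 0 and 0 against a minimum change of 1.2-fold. They were 1 and 5 without IKKe-labelled replicate 1 and 2 and 5 without control replicate 2. Sqle, squalene epoxidase, led the falls (66.0, 78.7 and 73.7 against 52.1, 54.5 and 59.2 CPM, -0.39 ± 0.06). NRF2 targets rose in 8 of 21 and fell in 0, 4 against a minimum change of 1.2-fold. Nfe2l2 itself was at 314, 297 and 306 against 425, 423 and 415 CPM (0.46 ± 0.03) and the ferritin gene Fth1 at 7340.1, 7461 and 7339 against 9169, 9009 and 9571 CPM (0.33 ± 0.04), while Hmox1 was not called (-0.09 ± 0.10).

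Genes of p53 response went 9 up and 1 down of 25, 3 and 0 against a minimum change of 1.2-fold. Mdm2 (178, 176 and 163 against 203, 207 and 212 CPM, 0.27 ± 0.04) and Gadd45a (0.59 ± 0.06) rose, and Cdkn1a, which encodes p21, was not called (0.08 ± 0.04). Autophagy and lysosome genes rose in 20 of 49 and fell in 4, 14 and 8 with upper-quartile scaling, 11 and 0 with all 24 libraries, 7 and 0 against a minimum change of 1.2-fold. Cathepsin genes went apart: Ctss (3708, 3768 and 3868 against 5305, 4948 and 5189 CPM, 0.44 ± 0.04) and Ctsc (0.74 ± 0.07) rose, and Ctsa fell slightly (-0.12 ± 0.04). Of 13 heat shock genes 15.4% were higher and 15.4% lower, near the 15.9% and 13.1% of all genes: Hspa1b (1.80, 2.60 and 1.53 against 6.62, 6.98 and 8.25 CPM, 1.90 ± 0.20) and Hspa1a (1.29 ± 0.25) rose, and Hsph1 and Bag3 fell. Of 11 mitochondrially encoded genes 5 fell and 0 rose, with 3 lower by DESeq2 or with all 24 libraries, 1 against a minimum change of 1.2-fold, 2 without control replicate 1 or IKKe-labelled replicate 1 and 3 without IKKe-labelled replicate 2. mt-Nd5 was at 1265, 1054 and 1141 against 763, 807 and 877 CPM (-0.50 ± 0.06), with a TBK1-WT change of -0.30, and 0 of the 11 passed the test of the difference. Of 3 nuclear RNAs, Neat1 (1106, 1097 and 1063 against 866, 845 and 1056 CPM, -0.24 ± 0.08) and Xist (788, 759 and 742 against 595, 632 and 705 CPM, -0.24 ± 0.06) fell and Malat1 was not called (0.10 ± 0.09). Neither fall was called with all 24 libraries, against a minimum change of 1.2-fold or without IKKe-labelled replicate 1. Their summed level was 2346 to 2446 CPM in the controls and 2002 to 2342 CPM in the IKKe-labelled libraries, and its part in the results was not tested.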
